A study of Mus musculus with 40 samples.

Results

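The data described here are the vehicle contrast in diabetic mice, that is, the kidney cortex of 5 Akita mice given the ethanol vehicle against that of 5 Akita mice given the water vehicle, replicates 1 to 5 of each group. Genes averaging 10 or more counts across the 10 libraries were included, 17928 of the 55401 genes in the table. Akita mice are heterozygous for the Ins2-Akita allele, a dominant change in an insulin gene that causes insulin to misfold and the beta cells to be lost, so that the mice are diabetic from a young age. All 10 libraries were labelled C57BL/6J and diabetic, and the whole series comprised 40 libraries in 8 groups of 5, with wild type (WT) littermates and with the drugs MitoGamide (in ethanol) and MitoQ (in water). The sources describe male mice and daily oral gavage from 6 to 22 weeks of age for the ethanol vehicle (10% ethanol in water) and MitoGamide only, so that the water vehicle is known from its label alone. The volume given, and whether the ethanol and water groups were treated, dissected and sequenced together, are not given in the sources used here. The labels number the replicates without naming animals, so that p-values measure the spread between these samples, which may be partly technical. RNA was sequenced after depletion of ribosomal RNA (rRNA), which keeps transcripts with and without a poly(A) tail.

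Ethanol is oxidised to acetaldehyde by alcohol dehydrogenases, with smaller contributions from cytochrome P450 2E1 and catalase, and acetaldehyde is oxidised to acetate by aldehyde dehydrogenases. The liver does most of this work, but the proximal tubule, which makes up most of the kidney cortex, also carries these enzymes, together with a large set of P450s, carboxylesterases and conjugating enzymes. A vehicle of dilute ethanol and a vehicle of water are each treated as a control in studies of this kind. The labelled tissue was checked against its defining markers. The endocytic receptor Lrp2 and the phosphate transporter Slc34a1 of the proximal tubule were at 2212 to 5267 and 2436 to 3959 CPM (a count relative to its library size scaled by TMM factors) in all 10 libraries. None of the 7 skeletal muscle markers reached the count minimum.

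The libraries of the water group differed widely in composition. Total counts ranged from 14753200 to 20200261 in the ethanol group and from 9106654 to 23109915 in the water group. Mitochondrial rRNA (mt-Rnr1 and mt-Rnr2), which the depletion step should remove, took 17.3%, 20.2%, 23.6%, 15.8% and 21.2% of the counts in ethanol replicates 1 to 5 and 19.3%, 41.5%, 27.3%, 25.2% and 38.6% in water replicates 1 to 5. The difference on the log2 scale was -0.59 (two-sided exact permutation test, p = 0.0397, adjusted p = 0.0893 over 9 classes). Nuclear protein-coding genes held 55.2% to 62.4% of the counts in the ethanol group and 35.2% to 60.4% in the water group (difference 0.33, exact permutation p = 0.0556, adjusted p = 0.1). The 13 mRNAs of the mitochondrial genome held 4.99% to 5.75% with ethanol, and with water they held 1.54% in replicate 2 and 5.71% in replicate 4. Water replicates 1 and 4 thus lay within or near the range of the ethanol group for these classes, whereas replicates 2 and 5, and less so replicate 3, stood apart. Without water replicates 2, 3 and 5, which were picked because they stood apart on these shares, the log2 difference was 0.02 for protein-coding genes, 0.01 for mitochondrial mRNAs and -0.18 for mitochondrial rRNA, but 0.47 for small RNAs, which differed by 0.20 over all 10 libraries. The coefficient of variation between replicates, as edgeR's common dispersion gives it, was 12.6% in the ethanol group and 28.6% in the water group. Spread was as unequal in WT mice, at 13.2% with ethanol and 34.0% with water.

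**Figure D1:**
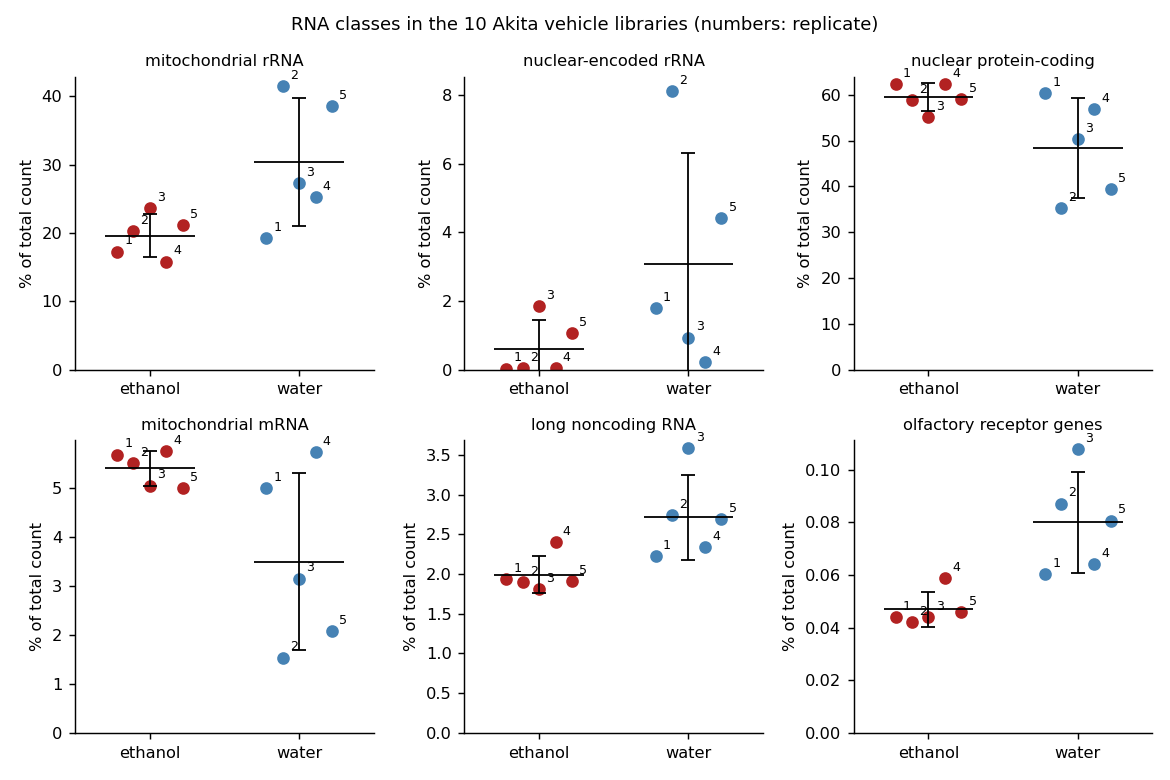
Share of each library's total count (%) on 6 RNA classes, with 1 point per library labelled by its replicate number and black lines for the mean ± SD of the 5 libraries per group. Water replicates 2 and 5 held 41.5% and 38.6% mitochondrial rRNA, against at most 23.6% in the ethanol group.

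Receptor families of the nose and long noncoding RNA held smaller shares in the ethanol libraries, without passing the adjusted test. Olfactory receptor genes took 0.0420% to 0.0587% of the counts with ethanol and 0.0604% to 0.108% with water, groups that did not overlap (log2 difference -0.75, exact permutation p = 0.00794, the smallest that 5 against 5 libraries allow, adjusted p = 0.0714). Vomeronasal receptor genes differed by -0.87 (exact permutation p = 0.0159, adjusted p = 0.0714) and long noncoding RNA by -0.43 (exact permutation p = 0.0238, adjusted p = 0.0714). Without water replicates 2, 3 and 5 the difference was -0.42 for olfactory and for vomeronasal receptor genes and -0.20 for long noncoding RNA. None of the 9 classes passed an adjusted p of 0.05 over all 10 libraries. With mitochondrial rRNA left out of the total, 3 of 8 passed, long noncoding RNA (adjusted p = 0.0423 by exact permutation) and olfactory and vomeronasal receptor genes (0.0317 for each by exact permutation), and some also passed with 1 library left out. Olfactory and vomeronasal receptor genes passed without ethanol replicate 4 and without water replicate 1, long noncoding RNA without ethanol replicate 4 and mitochondrial rRNA without water replicate 1, each with an adjusted p of 0.0476 by exact permutation. Both remaining classes were added after the data were seen and are not adjusted. TEC genes, which are putative transcripts with little evidence so far, took 0.348% to 0.461% with ethanol and 0.465% to 1.39% with water, groups that did not overlap (log2 difference -0.96, exact permutation p = 0.00794). The TEC difference was -0.28 without water replicates 2, 3 and 5. Nuclear-encoded rRNA, nearly all of it counted on the gene CT010467.1, took 0.0264% to 1.85% with ethanol and 0.225% to 8.10% with water, groups that overlapped (exact permutation p = 0.0873).

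In the main comparison 2283 of 17928 genes (12.7%) had an adjusted p under 0.05, with 657 (3.66%) higher and 1626 (9.07%) lower with ethanol than with water. Scaling on nuclear protein-coding genes alone gave 504 higher and 2356 lower, and DESeq2 gave 1739 higher and 2525 lower. The number passing the adjusted threshold rested on single libraries. Leaving out 1 ethanol library gave 2, 1, 1, 1178 and 1 called genes for replicates 1 to 5, and leaving out 1 water library gave 6496, 132, 1, 6120 and 1. The count thus rose when a water library resembling the ethanol group was removed and fell to nearly none when water replicate 3 or 5 was removed. It also fell to 1 or 2 without ethanol replicate 1, 2, 3 or 5, which did not stand apart. In these leave-one-out fits with 1 or 2 calls, 5146 to 6305 genes had an unadjusted p under 0.05 by edgeR, against 7109 in the main comparison. Without water replicate 2, the library richest in mitochondrial rRNA, 132 calls were left. Without water replicates 2, 3 and 5, a choice made after seeing the data, 6 genes were called, Cyp2a5, H4c12, Lrch4, Gm49361, Gm10221 and Rps6-ps4. With the log2 share of mitochondrial rRNA as a covariate 1 gene was called, with the protein-coding share as a covariate 2, and with the replicate number as a block 0, although 6595 genes had an unadjusted p under 0.05 in that last fit. In each of these fits with 1 call the gene was the pseudogene Gm10221, and it was joined by the TEC gene Gm43652 without ethanol replicate 1 and by the histone gene H4c12 with the protein-coding covariate. With the mitochondrial rRNA covariate the median log2 fold change of the called genes went from 0.57 to 0.34 among the higher and from -1.03 to -0.61 among the lower, while the log2 fold changes of some genes were about as large as without it, such as those of Ltbp4 (0.78 against 0.69), Olfr613 (-1.50 against -1.50) and Gm43652 (-1.66 against -1.68). Vehicle and class shares differed together in these 10 libraries and cannot be told apart.

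**Figure D2:**
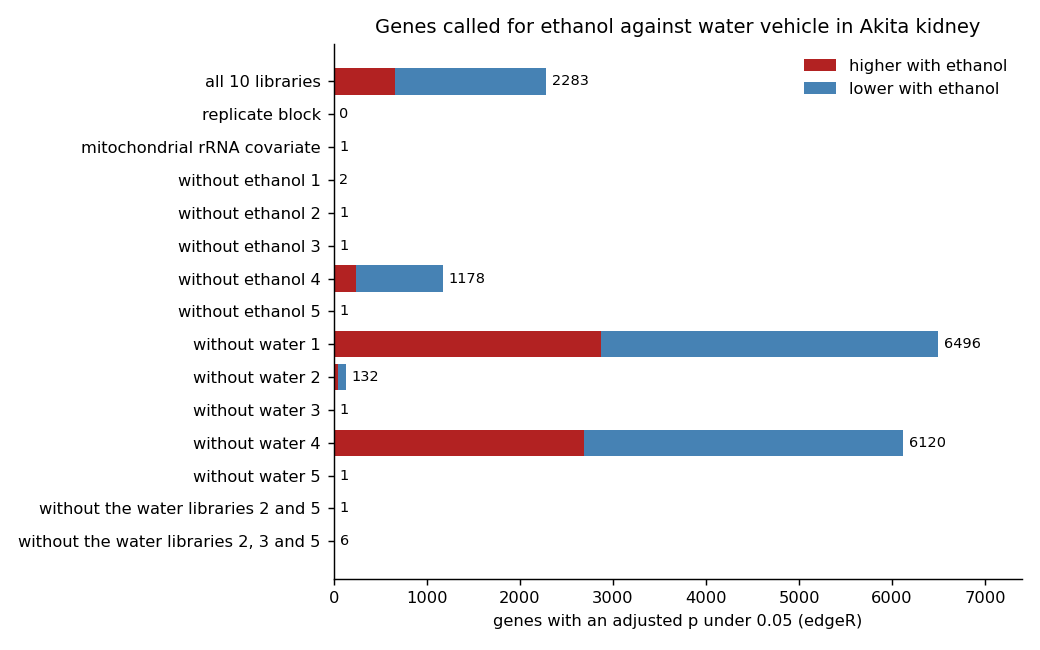
Number of genes with an adjusted p under 0.05 in edgeR (horizontal axis), split into higher and lower with ethanol, for all 10 libraries, with a replicate block, with a mitochondrial rRNA covariate, and with the libraries named on the vertical axis left out. The 2283 genes called over all 10 libraries became 6496 or 6120 without water replicate 1 or 4 and 1 without water replicate 3 or 5.

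The called genes divided by annotation class. Of the lower genes, 393 were long noncoding RNAs (20.6% of the 1912 tested), 387 were TEC genes (31.4% of 1231), and 142 were pseudogenes (22.3% of 637), against 9.07% lower among all tested genes. Lower calls also took 77 of 187 olfactory receptor genes and 71 of 125 vomeronasal receptor genes, families that serve smell and pheromone sensing in the nose, and none of either family was called higher. Nuclear protein-coding genes outside these families accounted for 624 of the higher and 555 of the lower calls among 13726 tested (4.55% and 4.04%). Among 63 tested small RNAs, 12 were higher (19.05%, against 3.66% of all tested genes) and 1 was lower. The median log2 fold change was -0.88 over the olfactory receptor genes and -0.96 over the vomeronasal receptor genes, compared with -0.02 over all tested genes. Without water replicates 2, 3 and 5 these medians were -0.43 and -0.43. On leaving out the same libraries the median went from -0.76 to -0.32 for TEC genes and from -0.63 to -0.18 for long noncoding RNAs. For pseudogenes it went from -0.60 to -0.19.

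**Figure D3:**
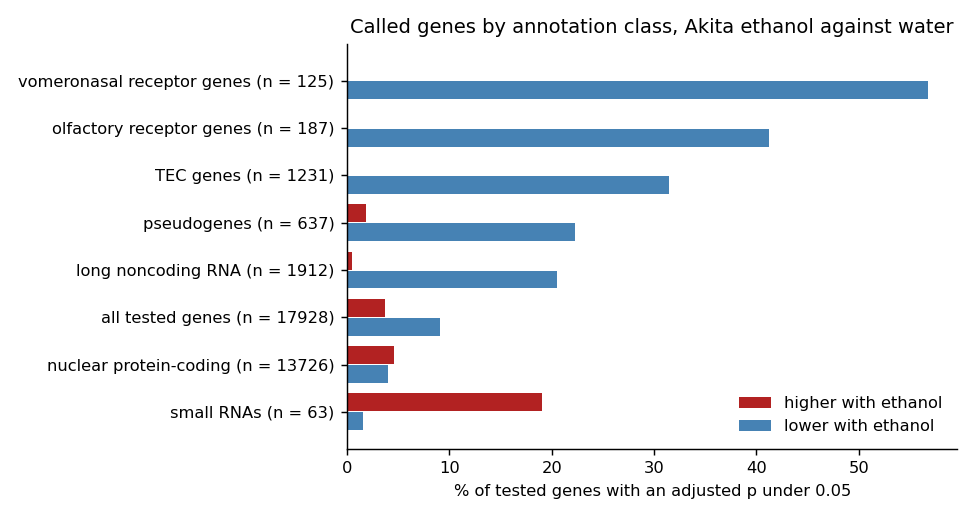
Percentage of tested genes (horizontal axis) called higher or lower with ethanol in each annotation class with at least 50 tested genes, with the number tested in parentheses. Lower calls reached 56.8% of vomeronasal and 41.2% of olfactory receptor genes, whereas nuclear protein-coding genes were called at 4.55% higher and 4.04% lower.

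The direction of the called genes was set beside their behaviour in the 30 libraries outside this contrast. For each gene the slope of log2 CPM on the log2 share of mitochondrial rRNA was taken within those 6 groups, so that a positive slope marks a gene that is higher in libraries with more mitochondrial rRNA. Slopes were above 0 for 11 of the 657 higher genes (1.67%) and for 1582 of the 1626 lower genes (97.3%), compared with 51.6% of all tested genes. These are shares across genes, which are not independent of each other, and they were not tested. Without water replicates 2, 3 and 5 the median log2 fold change went from 0.57 to 0.34 among the higher genes and from -1.03 to -0.47 among the lower genes.

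Among protein-coding genes higher with ethanol, those with the smallest p encoded a drug-metabolising P450, a lipid esterase, a lipid droplet protein and several proteins of matrix, redox and lysosome. By the rule that named them, each had 5 ethanol values above all 5 water values, as had 4.86% of all tested genes. Cyp2a5, a P450 that hydroxylates coumarin and nicotine (ENSMUSG00000005547.14, chr7:26835305-26843548), was at 74.7, 69.3, 75.5, 81.7 and 74.2 CPM in the ethanol libraries and 46.6, 20.6, 24.1, 36.4 and 36.6 CPM in the water libraries. Its ethanol values lay within a narrow range and all exceeded the highest water value (log2 fold change 1.19 ± 0.19 SE, adjusted p = 0.0296). On the library total without TMM factors it was at 33.3 to 171.5 CPM in the Akita MitoGamide libraries, which share the ethanol vehicle, and at 36.4 to 73.7 CPM in the Akita MitoQ libraries, which share the water vehicle, against 70.9 to 92.9 CPM with ethanol alone and 16.1 to 49.8 CPM with water alone. Coordinates are on GRCm38. It was 1 of 2 genes, beside the pseudogene Gm10221, called both over all 10 libraries and without water replicates 2, 3 and 5 (0.86, adjusted p = 0.0376). Its near-identical paralogue Cyp2a4 (ENSMUSG00000074254.4, chr7:26307169-26315088), a steroid hydroxylase, was at 82.95, 61.6, 69.9, 107 and 109.7 CPM in the ethanol libraries and 51.5, 52.5, 83.02, 28.8 and 56.3 CPM in the water libraries, with overlapping groups (log2 fold change 0.67 ± 0.25 SE, adjusted p = 0.0763), and reads could be divided between the pair by the authors' estimation. Ces1d, a carboxylesterase that hydrolyses esters and triglycerides (ENSMUSG00000056973.6, chr8:93166068-93197838), was at 188, 190.4, 157, 172 and 141 CPM in the ethanol libraries and 89.8, 53.96, 70.6, 114 and 81.5 CPM in the water libraries (log2 fold change 1.05 ± 0.18 SE, adjusted p = 0.0296). Fitm1, which helps to form lipid droplets, was at 16.9, 17.2, 16.8, 18.1 and 14.2 CPM in the ethanol libraries and 7.74, 3.30, 5.64, 9.86 and 7.30 CPM in the water libraries (log2 fold change 1.27 ± 0.21 SE, adjusted p = 0.0296). For both, water replicate 2 was lowest and water replicate 4 was highest within its group.

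Ltbp4, which anchors latent TGF-beta in the extracellular matrix (ENSMUSG00000040488.18, chr7:27305136-27337692), was at 40.5, 39.8, 37.8, 31.7 and 39.9 CPM in the ethanol libraries and 20.03, 24.1, 25.8, 25.1 and 22.3 CPM in the water libraries. Its log2 fold change was 0.69 ± 0.11 SE (adjusted p = 0.0296) and was as large without water replicates 2, 3 and 5, at 0.74, where the adjusted p was 0.0917. Txnrd3, a thioredoxin and glutathione reductase, was at 19.1, 17.1, 13.5, 14.6 and 15.01 CPM in the ethanol libraries and 9.22, 8.24, 10.4, 10.1 and 8.09 CPM in the water libraries (log2 fold change 0.78 ± 0.12 SE, and 0.72 with an adjusted p of 0.105 without those 3 libraries). Neither gene was called by edgeR in that smaller set. Naglu, a lysosomal enzyme that degrades heparan sulfate, was at 24.96, 22.1, 23.6, 24.2 and 19.98 CPM in the ethanol libraries and 16.7, 14.4, 14.8, 15.02 and 15.3 CPM in the water libraries (log2 fold change 0.59 ± 0.09 SE). Tspo, a cholesterol-binding protein of the outer mitochondrial membrane, was at 36.5, 34.4, 29.8, 38.2 and 34.6 CPM in the ethanol libraries and 25.5, 15.5, 21.1, 20.9 and 22.7 CPM in the water libraries (log2 fold change 0.71 ± 0.13 SE). Gas1, a membrane protein that binds hedgehog ligands, had a log2 fold change of 0.73 ± 0.13 SE, 2610528J11Rik of 0.61 ± 0.11 SE and Oxld1 of 0.70 ± 0.13 SE. The adjusted p was 0.0296 for each of these 10 genes, since the Benjamini-Hochberg adjustment gave the same value to a long run of ranks, and each kept its call in 4 of the 10 leave-one-out fits.

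**Figure D4:**
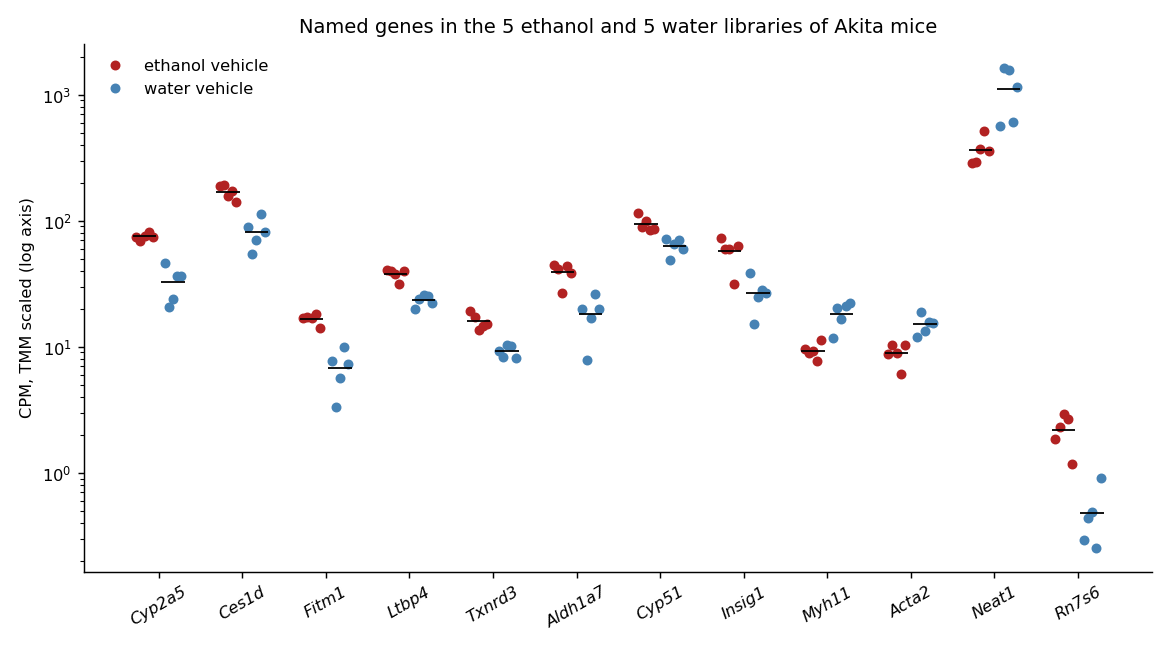
CPM scaled by TMM factors (log axis) of 12 named genes, with 1 point per library in order of replicate number, ethanol in red and water in blue, and a black line at the mean. For Cyp2a5 the 5 ethanol libraries sat between 69.3 and 81.7 CPM, above all water libraries, whereas Insig1 overlapped through ethanol replicate 4 at 31.3 CPM.

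Protein-coding genes lower with ethanol included chemosensory receptors and a smooth muscle gene among those with the smallest p. Of the 10 protein-coding genes with the smallest p, 6 were receptors of the nose: Olfr613, Olfr539, Olfr607, Olfr735, Olfr1336 and Vmn2r56. Olfr613 was at 2.89, 2.61, 1.49, 3.59 and 1.64 CPM in the ethanol libraries and 5.73, 9.56, 7.36, 6.47 and 6.13 CPM in the water libraries (log2 fold change -1.50 ± 0.24 SE, adjusted p = 0.0296). Olfr539 was at 9.66, 8.76, 10.8, 10.01 and 10.1 CPM in the ethanol libraries and 12.5, 22.1, 22.2, 15.8 and 21.1 CPM in the water libraries (log2 fold change -0.92 ± 0.16 SE), where water replicate 1 was nearest to the ethanol group. The other 4 had log2 fold changes between -1.20 and -0.87. Myh11, the myosin heavy chain of smooth muscle (ENSMUSG00000018830.10, chr16:14194535-14291372), was at 9.52, 8.92, 9.19, 7.63 and 11.2 CPM in the ethanol libraries and 11.6, 20.1, 16.6, 20.9 and 22.4 CPM in the water libraries (log2 fold change -0.97 ± 0.17 SE, adjusted p = 0.0296, -0.83 without water replicates 2, 3 and 5). Acta2, the actin of smooth muscle and myofibroblasts, was at 8.68, 10.4, 8.91, 6.11 and 10.3 CPM in the ethanol libraries and 11.9, 18.8, 13.2, 15.6 and 15.5 CPM in the water libraries (log2 fold change -0.75 ± 0.16 SE, adjusted p = 0.0296). Both muscle genes were lower in every ethanol library, as were 5.78% of all tested genes, but the summed level of the 10 markers for stroma and juxtaglomerular cells overlapped, at 175.2 to 221.3 CPM with ethanol and 183.3 to 245.8 CPM with water. In bulk tissue, fewer cells of a type and less RNA per cell cannot be told apart. Ccdc114, a component of the ciliary dynein docking complex, fell by 1.05, Amn1 fell by 0.78 and Gm14496 fell by 1.16 on the log2 scale.

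Noncoding genes were led by a pseudogene. The processed pseudogene Gm10221 (ENSMUSG00000067719.5, chr5:24581554-24581862) had 0 counts in all 5 ethanol libraries and 48, 44, 74, 113 and 53 counts in water replicates 1 to 5. Against a floor of 3 counts in the smallest ethanol library, 0.203 CPM, its mean water level of 4.5 CPM was at least 22.1-fold higher. Both values are on the library total without TMM factors, where its lowest water library was at 3.03 CPM. It was called lower with ethanol (adjusted p = 0.00189 by edgeR), and it kept its call whichever of the 10 libraries was left out. Elsewhere in the series it was also at 0 in all 5 Akita MitoGamide libraries, which share the ethanol vehicle, but 2 of 5 WT ethanol libraries held 77 and 18 counts and 3 of 5 WT MitoGamide libraries held 30 to 92. With the water vehicle and MitoQ, the Akita libraries held 0, 140, 229, 196 and 8 counts, so that 1 was at 0. WT libraries held 17 to 153 counts with water and 29 to 202 with MitoQ. The authors' estimation divides reads between near-identical copies, so that the value of a pseudogene is uncertain. Rn7s6, annotated as a 7S RNA (ENSMUSG00000092746.2, chr6:69516339-69516629), had 40, 45, 41, 59 and 20 counts with ethanol and 5, 4, 8, 6 and 7 with water (log2 fold change 2.31 ± 0.36 SE, adjusted p = 0.0296). Across the other 6 groups it had 12 to 53 counts in each library given ethanol vehicle, with or without MitoGamide, and 0 to 12 in each library given water vehicle, with or without MitoQ, except for WT water replicate 1 with 36. The pseudogenes Gm15432 and Oaz1-ps were higher (1.83 ± 0.32 SE and 0.87 ± 0.15 SE), while the TEC gene Gm43652 and the pseudogene Gm48260 were lower (-1.68 ± 0.22 SE and -0.94 ± 0.14 SE), each with an adjusted p of 0.0296. For Gm43652 the water libraries lay at 4.14, 5.604, 5.89, 6.18 and 6.39 CPM and the ethanol libraries at 2.57, 1.38, 1.49, 2.02 and 1.23 CPM, and the log2 fold change was -1.56 without water replicates 2, 3 and 5. In Akita MitoGamide libraries, which share the ethanol vehicle, Gm43652 was at 3.37 to 9.22 CPM taken on the library total without TMM factors, against 1.28 to 2.72 with ethanol alone and 4.40 to 6.44 with water on that scale. Gm15432 had 34 to 43 counts with ethanol alone and 2 to 17 with water, but 5 to 15 in the Akita MitoGamide libraries.

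Enzymes that oxidise ethanol and acetaldehyde were examined first among the gene lists. Of 16 tested, 3 rose (18.75%, against 3.66% of all tested genes) and none fell, with a median log2 fold change of 0.46 that was 0.17 without water replicates 2, 3 and 5. Aldh2, the mitochondrial dehydrogenase that clears most acetaldehyde, was at 419.9, 397, 408, 394 and 376 CPM in the ethanol libraries and 321, 257, 274, 347 and 308 CPM in the water libraries (log2 fold change 0.41 ± 0.12 SE, adjusted p = 0.0451). Adh5, the class III alcohol dehydrogenase that chiefly handles formaldehyde as a glutathione adduct, was at 133, 135, 124, 112 and 116 CPM in the ethanol libraries and 99.4, 44.6, 67.1, 97.1 and 71.8 CPM in the water libraries (0.70 ± 0.19 SE, adjusted p = 0.0388). Water replicates 1 and 4 were nearest to the ethanol group for both. Aldh1a7, a retinal dehydrogenase relative expressed in kidney and liver, was at 44.1, 41.5, 26.7, 43.4 and 38.7 CPM in the ethanol libraries and 19.97, 7.80, 16.98, 25.98 and 19.8 CPM in the water libraries (1.09 ± 0.25 SE, adjusted p = 0.0306). The classical ethanol enzymes did not pass the test: Adh1 was at 161, 164, 144, 145 and 169 CPM in the ethanol libraries and 144, 61.8, 122, 93.7 and 96.8 CPM in the water libraries (0.59 ± 0.19 SE, adjusted p = 0.0532). Cyp2e1, the P450 induced by ethanol in liver, was at 792, 728, 719, 563 and 614 CPM in the ethanol libraries and 639.6, 238, 507, 396 and 490.3 CPM in the water libraries (0.59 ± 0.23 SE, adjusted p = 0.0812). Summed over the 16 genes, the level was 3893 to 4781 CPM with ethanol and 2044 to 4265 CPM with water.

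Among P450 and conjugating enzymes, 11 of 42 rose (26.2%, against 3.66% of all tested genes) and none fell. Besides Ces1d they included the N-acetyltransferase Nat8, which completes mercapturate synthesis, at 85.7, 68.7, 62.02, 69.3 and 58.4 CPM in the ethanol libraries and 44.2, 21.3, 36.9, 43.6 and 39.1 CPM in the water libraries (0.89 ± 0.18 SE, adjusted p = 0.0296). Ces1f, a second carboxylesterase, had a log2 fold change of 0.71 ± 0.16 SE and the glutathione transferase Gstp1 of 0.81 ± 0.18 SE. The list's median was 0.42, and 0.16 without water replicates 2, 3 and 5. Among targets of NRF2, the regulator of antioxidant genes, 4 of 33 rose (12.1%), namely Pgd (0.49), the lipid peroxidase Gpx4 (1.21), Prdx6 (0.50) and Txn1 (0.69), while the median of 0.37 was 0.06 without the 3 libraries. Gpx4 ranged from 333 to 415 CPM with ethanol but from 74.7 to 269 CPM with water, where replicates 2 and 5 were lowest. In the list of fatty acid oxidation and PPAR-alpha targets, 2 of 32 rose (6.25%), the receptor Ppara itself (0.72) and Cpt1a (0.57), which admits fatty acids to mitochondria. Its median changed from 0.37 to -0.06 without those libraries. None of 35 genes of glucose handling and gluconeogenesis was called, and their median was 0.26 and 0.04.

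Mitochondrial and ribosomal protein mRNAs differed with the library set. Of 79 nuclear-encoded respiratory chain subunits, 13 rose (16.5%, against 3.66% of all tested genes), among them Ndufs7 (0.66), Ndufc2 (0.91) and Ndufa11 (0.56) of complex I and the ATP synthase subunit Atp5d (0.56), and all 79 had a positive fold change. The median of 0.57 was 0.14 without water replicates 2, 3 and 5. Ndufs7 was at 64.2, 55.1, 55.2, 58.8 and 53.9 CPM in the ethanol libraries and 42.01, 23.7, 39.5, 40.2 and 35.3 CPM in the water libraries, with water replicate 2 far below the rest of its group. Of 79 cytosolic ribosomal proteins, 1 rose (1.27%, Rpl18 at 0.69 ± 0.20 SE), with a median of 0.59 that was 0.03 without those libraries. The 13 mRNAs of the mitochondrial genome gave no call and a median of 0.39, or 0.00 without them, and for both mitochondrial rRNAs the fold change was negative without a call (mt-Rnr1 -0.99 ± 0.41 SE, mt-Rnr2 -0.76 ± 0.44 SE). Slopes on the mitochondrial rRNA share in the other 30 libraries were below 0 for all 79 respiratory chain and all 79 ribosomal protein genes. At the other end were long nuclear noncoding RNAs, which stay at the chromatin or in nuclear bodies. Of 6 tested, 5 were lower (83.3%, against 9.07% of all tested genes and 20.6% of tested long noncoding RNAs). Neat1, the scaffold of paraspeckles, was at 287, 294, 372, 511 and 360.2 CPM in the ethanol libraries and 562, 1628, 1582, 609 and 1143 CPM in the water libraries (-1.60 ± 0.31 SE, adjusted p = 0.0296), and water replicates 2, 3 and 5 held the highest levels. Kcnq1ot1 (-1.02), Snhg11 (-0.86) and Meg3 (-2.24) were also lower, and Malat1 was at -0.72 without a call (adjusted p = 0.0594). Meg3 had 2, 10, 6, 8 and 0 counts in ethanol replicates 1 to 5 and 13, 11, 49, 12 and 9 in water replicates 1 to 5. It thus reached the count minimum only through the water group, chiefly replicate 3, and its fold change is imprecise.

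**Figure D5:**
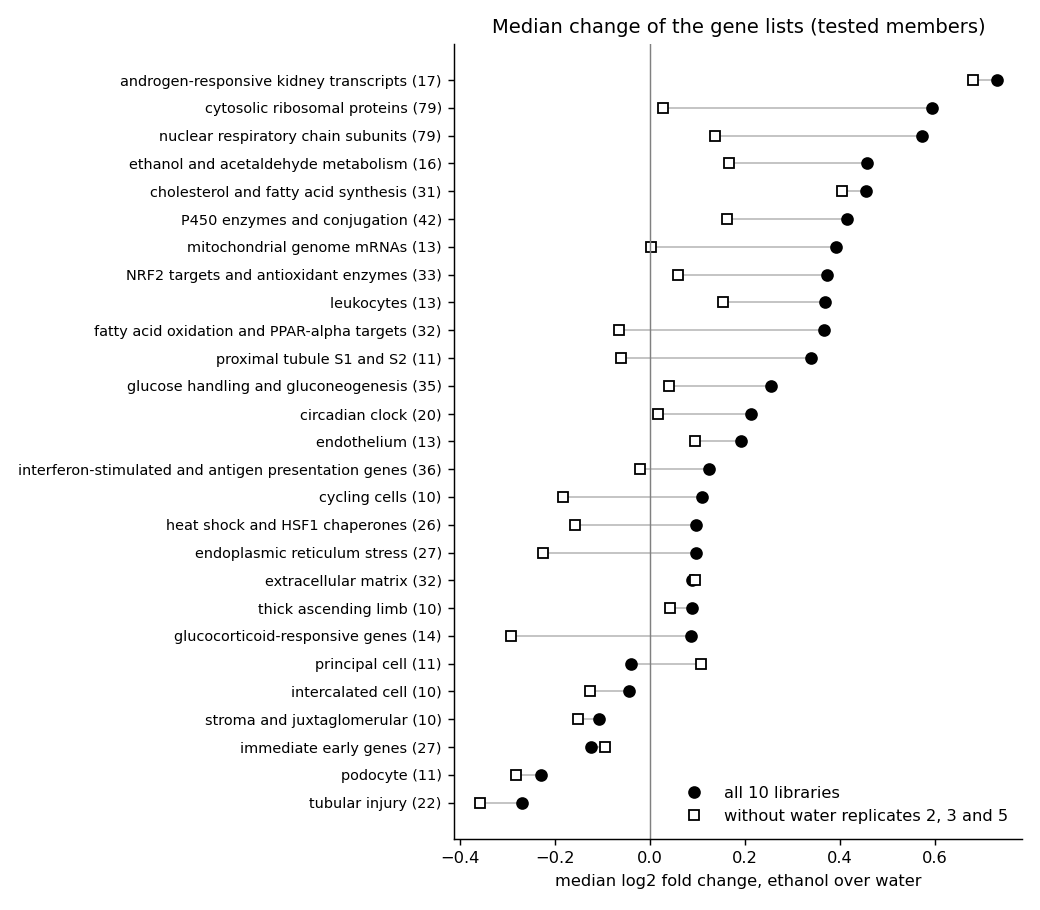
Median log2 fold change of ethanol over water (horizontal axis) for the gene lists with at least 10 tested members (number in parentheses), over all 10 libraries (filled circles) and without water replicates 2, 3 and 5 (open squares). The median of respiratory chain subunits went from 0.57 to 0.14 and that of ribosomal proteins from 0.59 to 0.03, whereas that of cholesterol and fatty acid synthesis went from 0.46 to 0.40.

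Cholesterol and fatty acid synthesis was the other list of lipid metabolism. Most of its genes are targets of SREBP transcription factors, which leave the endoplasmic reticulum when sterols are low, whereas INSIG proteins hold them back. Of 31 tested, 8 rose (25.8%, against 3.66% of all tested genes), none fell and 30 had a positive fold change, with a median of 0.46, and 0.40 without water replicates 2, 3 and 5. Cyp51, the lanosterol demethylase (ENSMUSG00000001467.5, chr5:4081145-4104746), was at 114, 89.4, 99.4, 84.6 and 86.2 CPM in the ethanol libraries and 71.1, 48.5, 65.05, 70.1 and 59.5 CPM in the water libraries (log2 fold change 0.59 ± 0.13 SE, adjusted p = 0.0301). Hsd17b7, which reduces the sterol ring ketone, was at 26.1, 19.7, 21.6, 18.6 and 25.2 CPM in the ethanol libraries and 17.1, 10.7, 12.9, 15.7 and 15.0 CPM in the water libraries (0.63 ± 0.14 SE, adjusted p = 0.0311). Insig1, the sterol-regulated brake on SREBP (ENSMUSG00000045294.11, chr5:28071363-28078662), was at 72.4, 59.3, 59.6, 31.3 and 63.4 CPM in the ethanol libraries and 38.4, 15.3, 25.02, 28.4 and 26.6 CPM in the water libraries (1.09 ± 0.24 SE, adjusted p = 0.0301). Both Cyp51 and Hsd17b7 separated the groups, whereas Insig1 overlapped because ethanol replicate 4 lay below water replicate 1. The fatty acid desaturase Fads1 was at 72.9, 70.8, 51.3, 41.04 and 54.9 CPM in the ethanol libraries and 42.4, 29.2, 35.6, 39.8 and 31.7 CPM in the water libraries (0.70 ± 0.17 SE, adjusted p = 0.0328), again with ethanol replicate 4 lowest in its group. Acly (0.62), Fads2 (0.46), Dhcr7 (0.48) and Nsdhl (0.78) also rose. No member was called without water replicates 2, 3 and 5, with adjusted p of 0.164, 0.205 and 0.227 for Cyp51, Hsd17b7 and Insig1, and 30 of 31 had slopes below 0 on the mitochondrial rRNA share elsewhere.

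Because these genes are known to be driven from the promoter by SREBP together with the CCAAT-binding factor NF-Y, the windows around the start sites of the 3 genes with the smallest p are shown, from 250 bases before to 50 after the start as RefSeq places it on GRCm38.p6, 5′ to 3′ along the gene. Capitals mark CCAAT on either strand, with ATTGG being its complement.
Cyp51, chr5:4104648-4104947, minus strand: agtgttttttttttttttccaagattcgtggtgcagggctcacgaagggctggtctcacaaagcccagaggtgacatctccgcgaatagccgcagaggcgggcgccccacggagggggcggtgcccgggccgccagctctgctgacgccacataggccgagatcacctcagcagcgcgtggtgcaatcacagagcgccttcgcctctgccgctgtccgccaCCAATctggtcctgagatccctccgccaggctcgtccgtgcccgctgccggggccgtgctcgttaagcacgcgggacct
Insig1, chr5:28071162-28071461, plus strand: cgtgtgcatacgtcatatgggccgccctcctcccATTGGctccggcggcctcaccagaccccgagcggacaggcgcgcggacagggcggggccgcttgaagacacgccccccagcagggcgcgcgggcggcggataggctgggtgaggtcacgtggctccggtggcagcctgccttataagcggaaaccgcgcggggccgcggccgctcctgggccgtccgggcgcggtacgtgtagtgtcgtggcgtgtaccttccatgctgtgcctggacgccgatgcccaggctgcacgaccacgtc
Hsd17b7, chr1:169969156-169969455, minus strand: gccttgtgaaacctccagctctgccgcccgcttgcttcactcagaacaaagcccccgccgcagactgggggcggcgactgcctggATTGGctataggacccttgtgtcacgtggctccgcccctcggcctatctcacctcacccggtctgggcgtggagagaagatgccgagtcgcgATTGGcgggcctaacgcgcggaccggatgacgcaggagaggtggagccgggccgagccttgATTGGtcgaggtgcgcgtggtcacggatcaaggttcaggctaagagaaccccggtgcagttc
CCAAT was found once in the Cyp51 window, 29 bases before the start, once in the Insig1 window, 216 bases before it, and 3 times in the Hsd17b7 window, at 165, 73 and 12 bases before it. Over all 32851 windows of this length 37.4% held the motif, and among the 27 windows of 21 genes of the list 18 did (66.7%). These are matches of letters and show neither binding nor a cause.

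Androgen-responsive transcripts of the kidney were examined together with other regulated programs. In the androgen-responsive list 3 of 17 rose (17.65%, against 3.66% of all tested genes), the ornithine decarboxylase gene Odc1 (1.12), Cyp4a12b (1.10) and Ugt2b38 (0.94), and the median of 0.73 was 0.68 without water replicates 2, 3 and 5. The summed level of the 17 genes overlapped, at 3945 to 5748 CPM with ethanol and 1725 to 4740 CPM with water. Water replicate 3, which that smaller set leaves out, was highest of its group at 4740 CPM. Water replicate 4, which it keeps, was lowest at 1725 CPM. Odc1 was at 357, 348, 198, 203 and 309.7 CPM in the ethanol libraries and 217, 52.1, 149.7, 148 and 84.2 CPM in the water libraries, groups that overlapped. Of 27 genes of endoplasmic reticulum stress only Ddit3, which encodes CHOP, was called, at 4.01, 3.64, 3.96, 5.12 and 4.15 CPM in the ethanol libraries and 8.27, 8.35, 6.32, 5.16 and 7.04 CPM in the water libraries (-0.74 ± 0.16 SE, adjusted p = 0.0301). Among 26 chaperones Hspe1 rose (0.73), among 27 immediate early genes Nr4a3 fell (-1.21), and among 20 clock genes Nr1d2 rose (0.44). Each of these lists had 1 call, a share of 3.70% to 5% that lies near or below the 3.66% higher and 9.07% lower of all tested genes. None of 22 tubular injury genes and none of 14 glucocorticoid-responsive genes was called. The MHC class II genes H2-Ab1 (0.68), H2-Eb1 (0.54) and Cd74 (0.58) rose, 3 of 36 interferon and antigen presentation genes (8.33%, against 3.66% of all tested genes), while none of 13 leukocyte markers was called and the summed leukocyte level overlapped, at 70.8 to 148.3 CPM with ethanol and 64.4 to 83.2 CPM with water. Cd74 was at 74.7, 99.3, 96.95, 63.2 and 122 CPM in the ethanol libraries and 75.6, 64.4, 56.4, 55.5 and 52.9 CPM in the water libraries, highest in ethanol replicate 5.

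Markers of nephron segments gave few calls, to be read against 3.66% higher and 9.07% lower among all tested genes, and some segments had calls in both directions. In the distal convoluted tubule the chloride cotransporter Slc12a3 was at 760.1, 849, 805, 879.8 and 785 CPM in the ethanol libraries and 948, 1714, 1482, 986 and 1490 CPM in the water libraries and was lower (-0.70 ± 0.19 SE, adjusted p = 0.0376), whereas the calcium-binding protein Pvalb was higher (0.79 ± 0.19 SE, adjusted p = 0.0328). The summed level of the 9 distal convoluted tubule markers did not overlap, at 2659 to 3053 CPM with ethanol and 3225 to 3542 CPM with water. Without Slc12a3, a sum added after seeing the data, the other 8 overlapped, at 1899 to 2204 CPM with ethanol and 1511 to 2403 CPM with water, and fold changes of the 9 had a median of -0.04 on the log2 scale, with 4 positive and 5 negative. In intercalated cells the ammonia transporter Rhbg rose (0.52) and the bicarbonate transporter Slc4a9 fell (-0.85). Of 11 podocyte markers 3 (27.3%) were lower, Plce1 (-0.50), Nphs1 (-0.42) and Wt1 (-0.42), while the summed level of the list overlapped at 449.8 to 512.8 CPM with ethanol and 425.2 to 573 CPM with water. Plce1 was at 8.63, 10.2, 10.7, 8.94 and 9.70 CPM in the ethanol libraries and 12.8, 14.2, 12.6, 15.2 and 13.6 CPM in the water libraries (-0.50 ± 0.10 SE), groups that did not overlap. Single calls were made for Acy3, higher among 9 markers of the S3 segment (0.86), and Cldn16, higher among 10 of the thick ascending limb (0.85). None of 11 markers of the S1 and S2 segments, 11 of principal cells and 13 of endothelium was called. The part of cell makeup in the gene differences was not tested. Birc5 was lower among 10 markers of cycling cells (-0.85), and none of 6 genes of red blood cells, 8 of hepatocytes, 3 of adrenal cortex and 3 of adipocytes was called.

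The same vehicles were compared in WT littermates, whose 10 libraries share none with the Akita contrast. No gene of 18092 (0%) was called by edgeR, with 4959 at an unadjusted p under 0.05 and 725 called by DESeq2, and 5216 were called when WT water replicate 5 was left out. The test of the difference between the genotypes called none of 18050 genes (0%), with 767 at an unadjusted p under 0.05 and 2 called by DESeq2, Gm28959 and Gm29012. The fold change in WT had the sign of that in Akita for 91.2% of the higher and 98.1% of the lower genes, compared with 82.2% of all tested genes, but the water groups of both genotypes held libraries rich in mitochondrial rRNA (up to 34.6% in WT). Cyp2a5 had a log2 fold change of 0.04 in WT against 1.19 in Akita (interaction unadjusted p = 0.00581, adjusted p = 1), and Txnrd3 had -0.03 against 0.78 (unadjusted p = 0.000644, adjusted p = 1). Ltbp4 had 0.14 against 0.69 and Gas1 -0.02 against 0.73. Myh11 was close in both, at -1.12 and -0.97, as was Neat1, at -1.51 and -1.60. A difference between genotypes was therefore not shown for any of these genes.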

How the data were processed

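Libraries were made by the authors from kidney cortex RNA with rRNA depletion and a directional kit and sequenced as single reads. Per the study's methods, the authors trimmed reads with Skewer, estimated transcript abundance with kallisto 0.46.1 against GENCODE mouse release 25 transcripts (GRCm38) and summed transcripts per gene in R 4.0.2. The deposited values are estimated counts, whole numbers with no normalization, and all 45 values with 7 or more digits were rounded to 6 significant digits, which does not bear on the tests. Whether the estimation used strand is not given in the sources used here, so that overlapping antisense genes and near-identical copies are uncertain.

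Each estimated count was used as deposited. Genes with an average of 10 or more in the contrast were fitted with edgeR 4.0.16 (quasi-likelihood test, TMM factors, Benjamini-Hochberg adjustment over all tested genes, called under 0.05) in R 4.3.3, on the Akita ethanol and Akita water libraries only, without covariates. WT libraries and the genotype interaction were fitted likewise, with DESeq2 1.42.0 and limma 3.58.1 as alternatives. Log2 fold changes are ethanol over water, with the standard error of the fit. Shares of RNA classes were compared by exact permutation over libraries. Annotation came from GENCODE release 21 (99.5% of gene identifiers matched). On simulated counts with 200 changed genes the test recovered 96% at a log2 fold change of 1. There the changed genes averaged 50 or more counts, and the same dispersion was set for all genes and both groups, without shifts in RNA classes. The real groups differed in spread, with a coefficient of variation of 12.6% with ethanol and 28.6% with water. The 96% therefore does not describe the power in these data. Gene lists describe counts and medians, with no set test. Named genes were the 10 protein-coding genes with the smallest p in each direction among called genes with groups apart and a mean of 50 or more, every called member of a list (4 where more), both mitochondrial rRNAs and 3 noncoding genes in each direction, and others named are additions made after values were seen. Members and lists were chosen with earlier results of these data known. Values of some genes are not reported here.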

Additional observations from a re-analysis of the deposited data

Results flagged for a closer look

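Of 142 groups of 5 values examined, 4 had a library far from the others, where chance gives about 1 in 20 groups, or 7.1. Ethanol replicate 4 held the highest share of long noncoding RNA in its group, 2.405% against 1.808% to 1.94% in the other 4 libraries. The same library held 0.05871% of its counts on olfactory receptor genes, against 0.04201% to 0.04584%, and 0.04743% on vomeronasal receptor genes, against 0.03314% to 0.03668%. It also had the lowest share of mitochondrial rRNA of the 10 libraries (15.8%), and for Insig1 and Fads1 it was the lowest of the ethanol group. The pseudogene Gm48260 was at 6.223 CPM in ethanol replicate 3, against 5.315 to 5.552 CPM in the other 4, still below every water library.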

How the results depend on the processing

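The count of 2283 called genes in Akita was 4264 with DESeq2, 1352 without the filter, 1 with mitochondrial rRNA as a covariate, 2 with the protein-coding share as a covariate, and, in fits chosen after seeing the data, 1 without water replicates 2 and 5, 6 without 2, 3 and 5 and 10251 with limma voom quality weights. Those weights were lowest for water replicates 1 and 4, the libraries nearest to the ethanol group in class shares, at 0.223 and 0.203. Water replicates 2, 3 and 5 had weights of 0.488, 1.9 and 1.53, so that this fit did not down-weight the libraries richest in mitochondrial rRNA the most. The called count, 2283 in the main fit, also depended on single libraries. It ranged from 1 to 6496 when 1 library was left out. In WT the count of 0 was 725 with DESeq2 and 0 to 5216 with 1 library left out, and for the genotype difference it was 2 with DESeq2 and 0 to 1. The replicate number as a block gave 0 calls in Akita and 2 in WT (Cps1 and Mup20). The numbers do not pair the samples: correlations of same-numbered deviations ran from -0.21 to 0.236, and only replicate 1 correlated best with its own number. The cause of these shifts was not tested.

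Of 102 named genes, 89 kept their side of the threshold and 13 gained a call with DESeq2, and 73 lost theirs with the mitochondrial rRNA covariate, with their direction unchanged. Of 8 class shares of the total without mitochondrial rRNA, 3 passed the threshold, at -0.65 for long noncoding RNA, -0.97 for olfactory and -1.09 for vomeronasal receptor genes on the log2 scale. With 1 library left out, the differences ran from -0.74 to -0.46 for mitochondrial rRNA, -0.50 to -0.33 for long noncoding RNA, -0.84 to -0.63 for olfactory and -1.01 to -0.75 for vomeronasal receptor genes. Low counts limit the precision of genes such as Nr4a3, Meg3 and Upk1b.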

Other observations

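A few epithelial genes, among them uroplakins of the urinary tract lining, were high in water replicates 3 and 4. The uroplakin Upk1b was lower with ethanol (log2 fold change -3.11 ± 0.89 SE, adjusted p = 0.0425 by edgeR), with 2, 5, 2, 9 and 2 counts in ethanol replicates 1 to 5 and 1, 9, 40, 117 and 1 counts in water replicates 1 to 5, so that water replicates 3 and 4 carried the difference. A second uroplakin, Upk3a, had 16 and 38 counts in the same libraries and 0 to 4 in the other 8. The keratin Krt19 had 56 and 134 counts there and 8 to 30 elsewhere, and Sprr2a2, an epithelial cornification gene, had 66 and 147 counts there and 2 to 12 elsewhere. These genes besides Upk1b were chosen after their values were seen. The summed level of 9 markers of renal medulla and papilla overlapped, at 799.6 to 897.3 CPM with ethanol and 622.3 to 861.6 CPM with water, and did not follow these genes, with 764.6 and 845.9 CPM in water replicates 3 and 4.

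Lars2, a mitochondrial leucyl-tRNA synthetase gene, followed the nuclear-encoded rRNA gene CT010467.1 across the 10 libraries, and both were picked after their values were seen. Lars2 had 1659, 1989, 32943, 2296 and 22355 counts in ethanol replicates 1 to 5, where CT010467.1 had 5327, 9525, 272253, 9251 and 175364. In water replicates 1 to 5 Lars2 had 35805, 215069, 28424, 6593 and 97279 counts and CT010467.1 had 281442, 939008, 138240, 51940 and 401701. Neither gene was called. The pseudogene Gm29216 had 26314 to 35533 counts in the ethanol libraries, but 29802 and 29391 in water replicates 1 and 4, 1024 in replicate 2 and 0 in replicates 3 and 5, and it was not called (adjusted p = 0.475 by edgeR).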
